A study of Mus musculus with 64 samples.

Results

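Transposon insertions were examined in 8 genes of B-cell confinement and homing, in tumours and tails of PiggyBac (PB) and Sleeping Beauty (SB) mice. The genes were Gna13, S1pr2, Arhgef1, Rhoa, S1pr1, Cxcr4, Cxcr5 and Ccr7. A line of the deposited table was taken as a member line where its gene column held one of these symbols, and 129 of 385883 lines did so, for 7 of the 8 genes. Cxcr4 had no line. Of these lines, 126 lay on the motif of their transposon and were kept as insertions, of 299612 insertions kept in all.

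The samples fell into 4 groups, with 1 sample per mouse name. PB mice gave 30 tumours and 12 tails, and SB mice gave 11 of either tissue. The tumours were diagnosed as diffuse large B cell lymphoma (DLBCL), and the tails served as control tissue. The labels give the genotypes as IMPB and IMSB. All mice carried a transposon array of an ITP line and, as described in the methods, a constitutive transposase knocked into Rosa26, so that transposition was not restricted to B cells. The SB mice came from parents that were all Blm m3/m3, of which one was Rosa26SB/+ and the other carried the array ITP1-C or ITP2-M. PB and SB mice shared a mixed background of C57BL/6, 129Sv and FVB. The labels do not say which ITP line a mouse carried, and its age and the Blm genotype of the PB mice are not given in the sources used here. The tumours were bulk tissue, so a lower share of lymphoma cells and a smaller clone within them cannot be told apart.

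Germinal centre B cells are held within the follicle by Gα13 signalling. The receptor S1PR2 senses sphingosine-1-phosphate, signals through the G protein subunit Gα13 (gene Gna13) to the exchange factor ARHGEF1, and this loads the GTPase RHOA, which restrains migration. S1PR1, CXCR4, CXCR5 and CCR7 are receptors that guide B cells between places. S1PR1 guides them into circulation, CXCR5 to the follicle, CCR7 to the T zone, and CXCR4 to the dark zone and bone marrow. Loss-of-function mutations of the human Gα13 arm are known from germinal centre lymphomas.

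The sites that carry the Gna13 finding lie in introns 1 and 2 of the gene on chromosome 11 of GRCm38. The following 5 were the site with the most reads of a tumour, with the donor chromosome 14 and the sex chromosomes left out. Each is given as 30 bases of the plus strand, which is the strand of Gna13, with the TTAA motif in capitals and distances counted from the GENCODE start of the gene.
chr11:109366409-109366438, intron 2, PB tumour 16: agaccaggtagccTTAAactgatagcaacc
chr11:109368753-109368782, intron 2, PB tumour 28: tcttacattttccTTAAgatgagtgagtgc
chr11:109370011-109370040, intron 2, PB tumour 24: ggtgacaggtttaTTAAataagaaagtgat
chr11:109378345-109378374, intron 2, PB tumour 10: gtgcactttttacTTAAgccagagtcttag
chr11:109381517-109381546, intron 2, PB tumour 27: tgagggctcatttTTAAgagactatataaa

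Another 3 positions were found in at least 3 PB tumours each, as was the one of PB tumour 10 above, and are shown because such positions bear on how many tumours count as hit.
chr11:109364701-109364730, intron 1, 4 tumours: gatacagatgaacTTAAagaatgaacagac
chr11:109365513-109365542, intron 1, 3 tumours: ggtttttctctttTTAAacaaaggtatgag
chr11:109388891-109388920, intron 2, 3 tumours: acatttgcaaaagTTAAagaaggccttgta

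Gna13, the G protein subunit of the confinement arm, was hit in 24 of 30 PB tumours and in 1 of 12 PB tails. The tumours held 67 insertions, at 4.27 per 10000 insertions, and the tails 1, at 0.208 per 10000. A PB tumour carried 2.23 ± 1.94 insertions in Gna13 (SD, n = 30), with a lowest value of 0, a median of 1.5 and a highest value of 6. By tumour, 6 carried none, 9 carried 1, 4 carried 2, 1 carried 3, 4 carried 4, 5 carried 5 and 1 carried 6. The groups overlapped only at 0 and 1 insertion, since no tail had more than 1. The rate was 20.6-fold higher in tumours (exact 95% interval of the counts 3.56 to 824), and the fitted log2 fold change was 3.29 ± 0.69 (SE, edgeR quasi-likelihood test, adjusted p = 0.000309). Of 3305 genes tested, 71 were higher in PB tumours at an adjusted p below 0.05, which is 2.15%, and Gna13 was the 19th by p. Sample names were written in a joined or a separated form, which can go with a batch. Within samples whose names were written in the joined form, 17 of 22 tumours and 1 of 5 tails were hit (edgeR adjusted p = 0.157), and within the separated form 7 of 8 tumours and 0 of 7 tails (edgeR adjusted p = 0.0120).

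**Figure D1:**
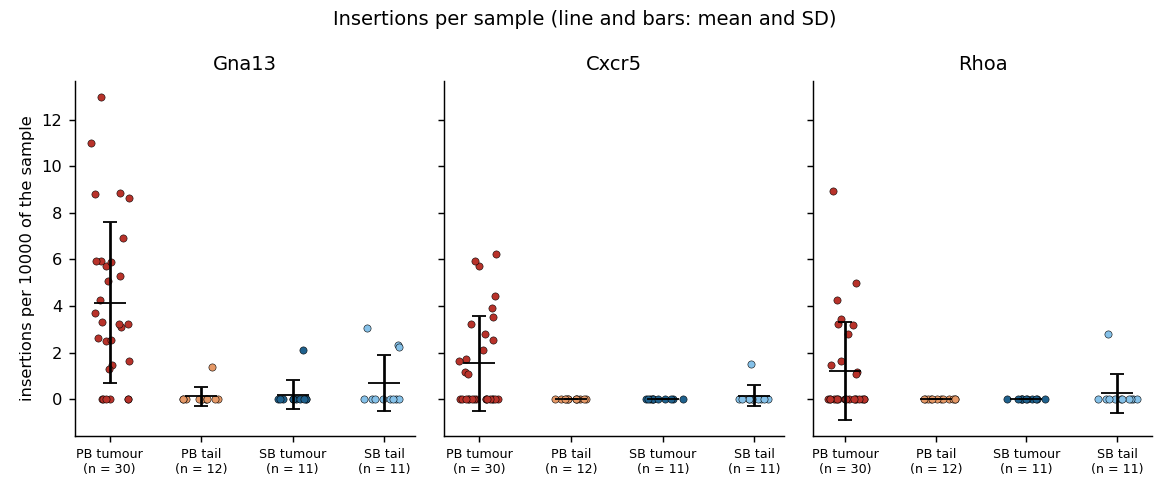
Insertions in Gna13, Cxcr5 and Rhoa per 10000 insertions of the sample (y axis) in the 4 groups (x axis). Each point is a sample, the horizontal line is the mean and the bars are the SD. Most PB tumours lie above 0 for Gna13, and no PB tail has an insertion in Cxcr5 or Rhoa.

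Against the number of insertions that its TTAA sites would receive on chromosome 11 (TransmicronNULL), Gna13 held 67 insertions in PB tumours where 3.63 were expected, 18.5 times as many (one-sided Wald test, Bonferroni-adjusted p = 8.61e-122, 24 tumours hit). It was the 15th of 22558 genes by p, of which 1121 (4.97%) were called. This p treats the insertions of a tumour as independent. With at most 1 insertion counted per tumour, 24 stood against 3.36 expected (one-sided Wald test, Bonferroni-adjusted p = 6.91e-18). The expected numbers here and below rest on motif sites alone. They leave aside the preference of PB for open chromatin and transcription start sites that the study reports. The part of this preference in the calls was not tested. The PB tails had 2 insertions in the RefSeq gene body where 0.918 were expected (Bonferroni-adjusted p = 1), and 282 genes (1.25%) were called in this group. The second tail insertion is named Gm11696 in the table, a gene that overlaps the start of Gna13. With it the tumour rate was 10.3-fold that of the tails (exact 95% interval 2.74 to 86.6).

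**Figure D2:**
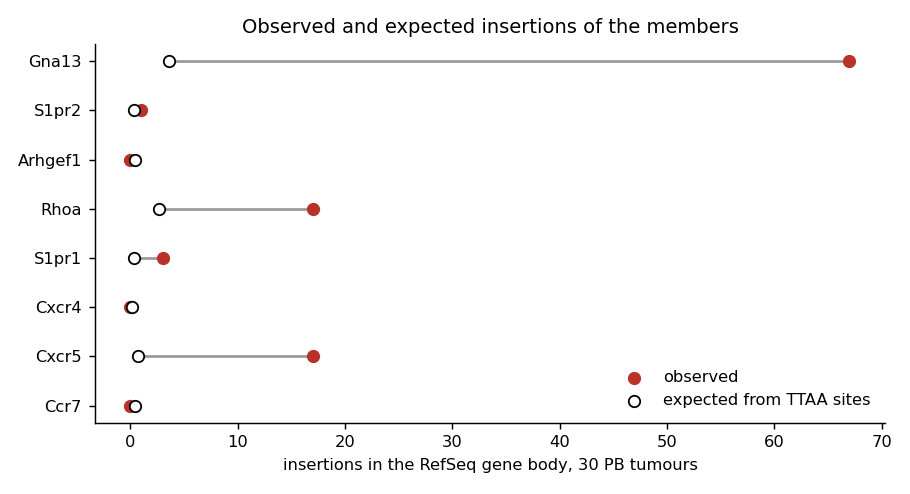
Observed insertions in the RefSeq gene body of each member over 30 PB tumours (red) and the number expected from its TTAA sites (white), both on the x axis. Gna13 shows 67 against 3.63, Cxcr5 17 against 0.717 and Rhoa 17 against 2.68, while the others have at most 3.

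In the SB mice Gna13 was hit in 1 of 11 tumours and in 3 of 11 tails, with 1 insertion each and reads between 22 and 39. With fewer than 10 insertions in all, it was not tested between SB tumours and tails, a comparison in which 7 of 1124 genes (0.623%) were higher in tumours. The observed numbers were 1 against 0.725 expected in SB tumours and 3 against 0.799 expected in SB tails (Bonferroni-adjusted p = 1 for both), in groups with 95 (0.398%) and 43 (0.18%) called genes of 23859. The SB tumours were fewer, with 43813 insertions against 156888 in PB. The difference between the systems in the change from tail to tumour was −4.06 ± 1.40 on the log2 scale for Gna13 (SB minus PB, SE, edgeR adjusted p = 0.386, unadjusted p = 0.00366). In this interaction test with edgeR 0 of 4291 genes (0%) passed, 392 had an unadjusted p below 0.05, and TMM normalization gave 0 as well, so the change from tail to tumour was not shown to differ between the systems. Between the tumours alone, the rate in Gna13 was 18.7-fold higher in PB than in SB (exact 95% interval of the counts 3.25 to 750), a ratio that leaves aside the motifs and the spread between tumours.

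The reads set Gna13 further apart from the other members. Within a tumour, the number of reads of an insertion depends on the share of cells that carry it, on PCR and on the sequence around it. Ranks and shares of reads count kept insertions only, so those on the donor chromosome 14 and the sex chromosomes do not enter. A Gna13 insertion was among the 10 insertions with the most reads in 11 of 30 PB tumours, and ranked first in 5. Of all insertions of PB tumours, 0.192% were among the first 10 of their tumour, and of the Gna13 insertions 16.4%. Of 176 genes with an insertion among the first 10 in a PB tumour, 2 had one in more tumours than Gna13.

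The insertion of PB tumour 27 took 11.0% of the reads of its tumour (23695 reads). That of PB tumour 10 took 10.9% (9226 reads), and those of PB tumours 24 and 16 took 6.18% (10840 reads) and 5.92% (6540 reads). In PB tumour 28 the first rank was reached with 1.85% (2578 reads). These are the 5 sites printed first above, and all lie in intron 2 in the orientation of the gene. Of the 67 insertions, 16 had at least 1000 reads, and 23 had fewer than 10. Low and high insertions often lay side by side, as in PB tumour 10, where the other 4 insertions in Gna13 had between 4 and 20 reads.

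None of the other members reached the first 10. The best ranks were 44 for Cxcr5 and 143 for Rhoa in PB tumours, and 43 for Ccr7 in SB tumours. The tails had Gna13 insertions at rank 395 in PB and at best 383 in SB.

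**Figure D3:**
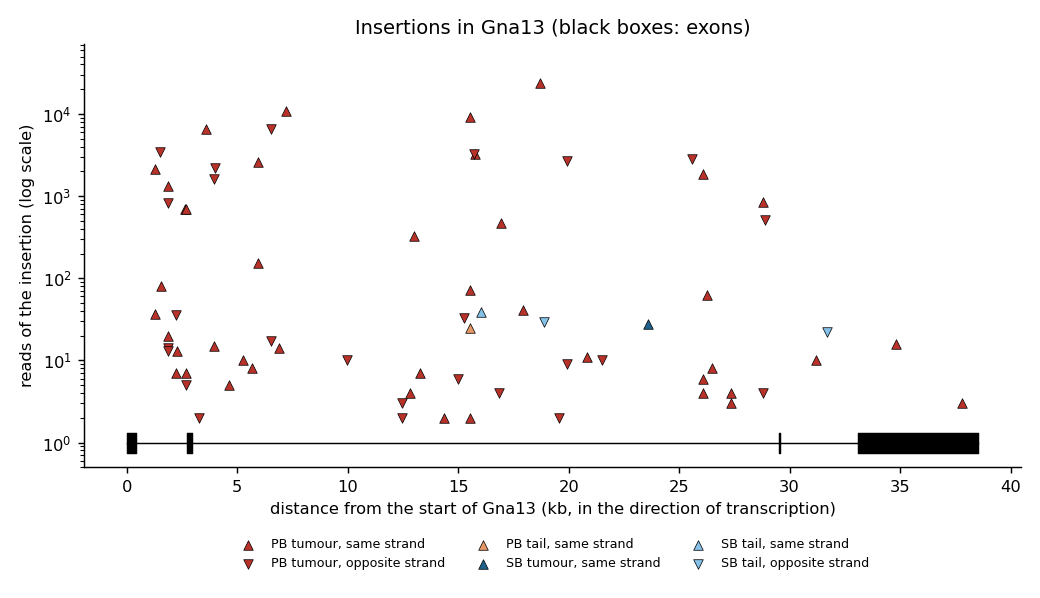
Insertions in Gna13 in all 4 groups by distance from the gene start (x axis, kb) and by reads (y axis, log scale), with exons as black boxes. Triangles point up for the strand of the gene and down for the opposite strand; the PB tumour insertions run from 1271 to 37793 bp, and the highest has 23695 reads.

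By position, 16 of the 67 insertions lay in intron 1, 48 in intron 2, 1 in intron 3 and 2 in the 3′ UTR within exon 4. None lay in coding sequence. Intron 2 held 71.6% of the insertions and 72.6% of the 223 TTAA sites of the gene. Intron 1, which separates the first and second coding exons, held 23.9% of the insertions and 9.87% of the sites, and was hit in 12 tumours. The first 10 kb held 31 insertions (46.3%) and 67 of the 223 sites (30.0%). The 50 positions used in PB tumours made up 22.4% of the TTAA sites. Around them the 10 bases on each side were 61.0% A or T, against 63.8% around all TTAA sites of the gene, and a T came before the motif at 42.0% of them against 46.6%. These shares are descriptions, and no test was run on them. The study reports that PB favours transcription start sites, and the part of this preference in the shares was not tested.

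Of the 50 positions, 12 were found in more than 1 tumour. In the intron 1 position found in 4 tumours, PB tumour 7 had 1344 reads on the strand of the gene, while PB tumour 11 had 827 reads on the opposite strand. In the same position PB tumours 2 and 22 had 14 and 13 reads on that opposite strand. At the position of PB tumour 10, which had 9226 reads, PB tumour 3 had 72 reads, PB tumour 9 had 2 and PB tail 4 had 25, all on the same strand. This last was the insertion that made the only PB tail hit. A position and strand that was held by another sample of the same system with at least 10 times the reads made up 10 of the 67 insertions in PB tumours (14.9%), and the 1 in PB tails, against 0.667% of all insertions of PB tumours. Without such insertions, 57 that the table names Gna13 remained in 21 tumours and 0 in tails. The tumour rate was then at least 5.84-fold that of the tails when 3 insertions are counted over them (edgeR adjusted p = 9.64e-05). In the RefSeq gene body 1 tail insertion, the one named Gm11696, remained against 0.913 expected. Whether reads were carried between samples was not tested.

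The table gives a strand for each insertion, without stating whether this is that of the transposon or of the read. In Gna13, 42 insertions of PB tumours lay on the strand of the gene and 25 on the opposite strand (62.7%, against 48.4% of 85096 insertions in genes of known strand). By tumour, 14 had more on the gene's strand, 8 had more on the other and 2 had equal numbers. The mean difference was 0.708 insertions per tumour (exact two-sided sign-flip permutation test over 24 tumours, p = 0.160, adjusted p = 0.479 over 3 members). A mean difference other than 0 was thus not shown. Of the 16 insertions with at least 1000 reads, 9 were on the strand of the gene and 7 on the other. Of the 15 tumours with several Gna13 insertions, 9 held both orientations.

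Among PB tumours by site, Gna13 was hit in 6 of 6 mesenteric lymph nodes, 7 of 9 mesenteric masses, 7 of 8 other lymph nodes, the 1 cervical mass and 3 of 6 spleens. The rate was 6.19 per 10000 insertions in mesenteric lymph nodes, 5.11 in mesenteric masses, 3.71 in other lymph nodes and 2.03 in spleens. Spleens thus had the lowest rate of the sites with more than 1 tumour. The test of samples hit, 3 of 6 spleens against 13 of 15 mesenteric tumours, did not pass (two-sided Fisher's exact test, p = 0.115, adjusted p = 0.458 over 8 members). The first 10 insertions by reads held one in Gna13 in 5 of 6 mesenteric lymph nodes, 3 of 9 mesenteric masses, 3 of 8 other lymph nodes and 0 of 6 spleens. As a share of the reads on kept insertions, Gna13 insertions made up at most 0.102% in a spleen. The median depth was 3650 insertions in spleens, 4550 in mesenteric masses, 4870 in mesenteric lymph nodes and 6450 in other lymph nodes. PB tumours with a Gna13 insertion had a median of 5657 insertions against 3558 in those without, and the part of depth was not tested. The spleen of PB tumour 3, with 5721832 reads the deepest sample, held 4 of the 6 spleen insertions in Gna13; without it 2 of 5 spleens were hit (Fisher's exact test, adjusted p = 0.455).

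**Figure D4:**
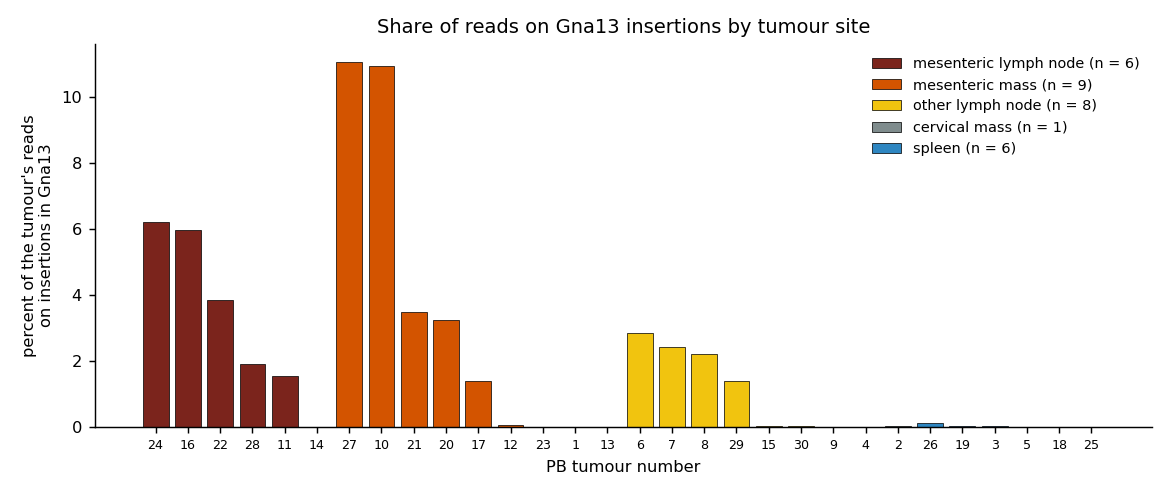
Percent of the reads on kept insertions of each PB tumour that lay in Gna13 (y axis), by tumour number (x axis) and coloured by site. The bars reach 11.0% in a mesenteric mass, and no spleen exceeds 0.102%.

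S1pr2, the receptor upstream of Gα13, had 1 insertion in 1 PB tumour, of 10 reads in intron 1, and none in the other groups. This was 1 against 0.346 expected (Bonferroni-adjusted p = 1). S1pr2 spans 10.8 kb in RefSeq with 27 TTAA sites, so few insertions could be expected there. A count of 0 in the 12 PB tails allows a rate of up to 0.623 per 10000 insertions, which is above the tumour rate of 0.0637. With 10 kb added on each side, 11 insertions in 9 PB tumours were found against 1.60 expected (one-sided Wald test, Bonferroni-adjusted p = 1.95e-06), and S1pr2 was then called. In this setting 1496 genes were called in PB tumours. The PB tails had 0 insertions where only 0.483 were expected. The other 10 insertions are intergenic in the table.

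Arhgef1, the exchange factor between Gα13 and RHOA, had no insertion in PB tumours, where 0.451 were expected from its 43 TTAA sites, and none in tails. A single SB tumour, the mesenteric mass SB tumour 11, carried an insertion of 27 reads in intron 14. At this depth an excess in S1pr2 or Arhgef1 was not detectable within the gene bodies unless it was large.

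Rhoa, the GTPase at the end of the arm, was hit in 11 of 30 PB tumours with 17 insertions, and in 0 of 12 PB tails. The 11 tumours held between 1 and 3 insertions, and 19 held none, so that tumours and tails overlapped at 0. The rate of 1.08 per 10000 was at least 1.74-fold that of the tails, counting 3 insertions over all tails as the limit. The comparison of tumours and tails just missed the threshold (edgeR adjusted p = 0.0519), and passed it with TMM normalization (0.0301), with the donor chromosome kept (0.0457) or with the form of the sample name as a term (0.0296). It missed it with the RefSeq gene body (0.0531), with no minimum of insertions (0.192), with presence per sample (Fisher's exact test, 0.311) and with DESeq2 (0.791). Against its 209 TTAA sites Rhoa was called in PB tumours, with 17 insertions where 2.68 were expected (Bonferroni-adjusted p = 2.8e-10). With at most 1 insertion counted per tumour, 11 stood against 2.54 expected (one-sided Wald test, Bonferroni-adjusted p = 0.0128). Of the 17 insertions only 6 had at least 10 reads, and with these the call was lost (6 insertions in 5 tumours, Bonferroni-adjusted p = 0.101), although the ratio to the expected number, 6.13, was close to that of all insertions, 6.35.

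All 17 insertions of Rhoa lay in introns, 7 in intron 1, 6 in intron 2, 3 in intron 4 and 1 in intron 5. Intron 1 held 41.2% of them and 23.3% of the TTAA sites. On the strand of the gene lay 9, and 8 lay on the other (exact sign-flip permutation test, p = 1). The most covered Rhoa insertion, of PB tumour 29 with 142 reads and opposite to the gene, is shown with its motif in capitals. PB tumour 11 had 2 reads at the same position on the other strand.
chr9:108307200-108307229, Rhoa intron 1: gttattacttcaaTTAAgaatcactgatgg

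S1pr1, the receptor for exit into the circulation, had 3 insertions in 3 PB tumours, all in intron 1 and with 2, 9 and 12 reads. The number expected from its 31 TTAA sites was 0.343 (Bonferroni-adjusted p = 1). In SB tails 1 insertion of 120 reads lay in the 3′ UTR, and PB tails and SB tumours had none.

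Cxcr5, the receptor for the follicular chemokine CXCL13, was the second member by insertions. It was hit in 14 of 30 PB tumours with 25 insertions, and in 0 of 12 PB tails. Of the tumours 7 held 1 insertion, 4 held 2, 2 held 3 and 1 held 4, while 16 held none and so overlapped the tails. The rate was 1.59 per 10000 in tumours, at least 2.56-fold that of the tails, counting 3 insertions over all tails (edgeR adjusted p = 0.0123). The call was lost with DESeq2 (adjusted p = 0.277), with presence per sample (Fisher's exact test, adjusted p = 0.213) and with the shorter RefSeq gene body (edgeR adjusted p = 0.0531). Within joined names 10 of 22 tumours and 0 of 5 tails were hit (edgeR adjusted p = 0.276), and within separated names, too few for the fit, 4 of 8 tumours and 0 of 7 tails. The RefSeq body of 14.7 kb has 56 TTAA sites and held 17 insertions in 10 PB tumours where 0.717 were expected (Bonferroni-adjusted p = 6.9e-35). This call was kept in 6 of 6 alternatives. With at most 1 insertion counted per tumour, 10 stood against 0.707 expected (one-sided Wald test, Bonferroni-adjusted p = 6.01e-13). Cxcr5 insertions of the table reached beyond this body, within the longer GENCODE gene of 50.1 kb. Of the SB samples, 1 tail had an insertion, with 22 reads, and 0 tumours.

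In its transcript of 4 exons 1 insertion lay in intron 1, 7 in intron 2, 12 in intron 3, 2 in the coding part of exon 4 and 3 in its 3′ UTR. Intron 3 held 48.0% of the insertions and 24.3% of the 210 sites. Both coding insertions, in PB tumours 8 and 14, were at the same position and strand with 11 and 9 reads. Orientation was balanced, with 13 on the strand of the gene and 12 opposite (exact sign-flip permutation test, p = 1). Reads were low, at a median of 7, and 9 of the 25 had at least 10 reads. The positions of the coding insertions and of the insertion with the most reads (380, PB tumour 29) are shown on the plus strand, which is opposite to Cxcr5, with the motif in capitals.
chr9:44514191-44514220, Cxcr5 exon 4, coding: catgaataccgccTTAAaggacgtcagtaa
chr9:44517856-44517885, Cxcr5 intron 3: agctcgacaagtgTTAAagccactccccat

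**Figure D5:**
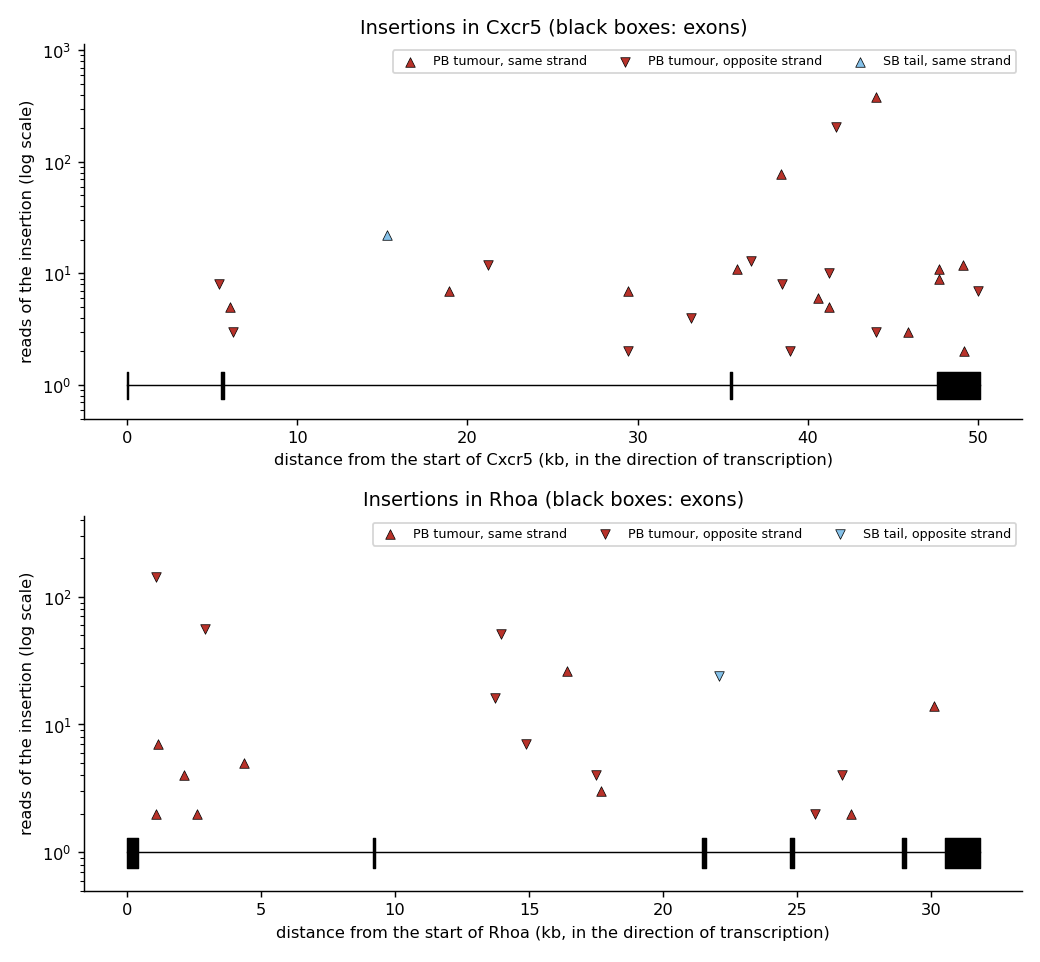
Insertions in Cxcr5 (top) and Rhoa (bottom) in all groups by distance from the gene start (x axis, kb) and by reads (y axis, log scale), with exons as black boxes. Up and down triangles mark the strand of the gene and the opposite strand; the highest insertion has 380 reads in Cxcr5 and 142 in Rhoa.

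No spleen carried a Cxcr5 insertion (0 of 6), while 7 of 15 mesenteric tumours and 6 of 8 other lymph nodes did. The difference between spleens and mesenteric tumours was not past the threshold (two-sided Fisher's exact test, p = 0.0609, adjusted p = 0.458). Rhoa was hit in 1 of 6 spleens, 4 of 15 mesenteric tumours and 5 of 8 other lymph nodes (Fisher's exact test, spleen against mesenteric, p = 1).

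Ccr7, the receptor for the T zone chemokines, was hit in 0 of 30 PB tumours, in 1 PB tail and in 1 SB tumour, the spleen SB tumour 6. This SB tumour held all 3 insertions of the group, 2 in the 3′ UTR and 1 in intron 1. The pair in the 3′ UTR lay 6 bp apart on the same strand and each had 162 reads. Whether they are 1 insertion was not tested. They are shown on the plus strand, opposite to Ccr7, with the TA motif of SB in capitals.
chr11:99144777-99144804: gctttggttgaggTAgttataagtggga
chr11:99144783-99144810: gttgaggtagttaTAagtgggatggggt
The 3 insertions stood against 0.129 expected, but Ccr7 was not called, since a call needed insertions in at least 3 samples. Cxcr4, which guides B cells to CXCL12, had 11 TTAA sites in 4.10 kb and an expected number of 0.129 in PB tumours, so that 0 insertions there give no information on an excess or a lack.

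With 24, 14 and 11 of 30 PB tumours hit in Gna13, Cxcr5 and Rhoa, some tumours must share hits, and the overlaps are given as counts only. Both Gna13 and Cxcr5 were hit in 12 tumours, Cxcr5 alone of these in 2 and neither in 4. Both Gna13 and Rhoa were hit in 9, both Cxcr5 and Rhoa in 8, and all 3 genes in 7, while 3 tumours had none of them. The tumours hit in Cxcr5 had a median of 5964 insertions against 3946 in those not hit, and those hit in Rhoa 5796 against 3952. The part of depth in the overlap was not tested.

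Of 55 further genes of the same pathways, 52 had TTAA sites on the chromosomes used, and 11 were called in PB tumours (4.97% of all genes were). The list was chosen with earlier results of these data known. Over the 52 genes, the median ratio of observed to expected insertions in PB tumours was 2.12, against 0.758 over all genes. In PB tails 2 of the 52 were called (1.25% of all genes were), in SB tumours 1 (0.398% of all genes) and in SB tails 0 (0.18% of all genes). In the G13 and small GTPase arm, 6 of 16 were called. Dock2, a Rac exchange factor for lymphocyte migration, had 66 insertions in 25 tumours against 32.5 expected. Rock2, a kinase activated by RHOA, had 50 in 21 tumours against 10.1 expected, and was also called in PB tails with 13 against 3.08. Gnaq, the Gq subunit, had 56 against 23.1, and Cdc42, a GTPase of cell polarity, had 15 against 3.25. These were not called in PB tails, but their ratios there were similar, with 13 against 6.45 for Gnaq and 4 against 1.04 for Cdc42, and the rate in tumours was 1.32 and 1.15 times that in tails. The median ratio of the arm was 2.27 in PB tumours and 2.04 in PB tails. Arhgdib, which holds small GTPases inactive, had 8 against 1.03 and was called in tails too, with 5 against 0.309. Gnai2, the Gi subunit used by chemokine receptors, had 5 against 0.602.

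Among receptor regulators, 2 of 9 were called. Rgs13, which dampens G protein signalling in germinal centre B cells, had 24 insertions in 8 tumours against 3.39 expected, and Rgs2 had 4 against 0.374. Among integrin and homing genes, those called included Rap1a, a GTPase that activates integrins, with 58 insertions in 24 tumours against 7.42, and its paralogue Rap1b with 18 in 13 tumours against 3.20. Of the 9 genes of the S1P arm and the 10 further guidance receptors and ligands with TTAA sites, 0 were called. The only call in SB tumours was Itgb1, the integrin β1 chain, with 7 insertions in 6 tumours against 1.04. The Itgb1 call was kept in 2 of 6 alternatives. It was lost with an exact Poisson test, with at least 10 reads, with at most 1 insertion per sample and gene, and with 10 kb added on each side. Of the 11 called in PB tumours, Rap1a and Rap1b were called in all 6 alternatives, and the others were lost in at least 1. In PB tails Rap1a had 2 insertions against 2.35 expected and Rap1b 3 against 0.999. For Rap1b an excess of PB tumours over tails was not shown (log2 fold change 0.67 ± 0.64, SE, edgeR adjusted p = 0.605).

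Between PB tumours and tails 16 of the 55 genes could be tested and 3 were higher in tumours (2.15% of all genes were). Rap1a had 58 insertions in tumours and 2 in tails (log2 fold change 2.55 ± 0.64, SE, edgeR adjusted p = 0.00549). Dock2 had 66 and 4 (2.06 ± 0.57, SE, edgeR adjusted p = 0.0138). Rgs13 had 24 and 0, a rate at least 2.45-fold higher (edgeR adjusted p = 0.0145). With presence per sample all 3 calls were lost (Fisher's exact test, adjusted p = 0.0782 for Rap1a, 0.213 for Dock2 and 0.486 for Rgs13). Those of Dock2 and Rgs13 were also lost with no minimum of insertions (edgeR adjusted p = 0.0981 and 0.0616), and that of Rgs13 with DESeq2 (adjusted p = 0.902). The median log2 fold change of the 16 was 0.19, and that of all tested genes 0.20.

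By insertions per 10000 over all 64 samples, the genes ordered most like Gna13 were Sp140 (Spearman correlation 0.75), Ikzf3 (0.69) and BC035044 (0.59), among 2177 genes with at least 20 insertions and over 1 Mb away. Sp140 had 44 insertions in 23 PB tumours, Ikzf3 81 in 23 and BC035044 25 in 16. The values describe samples that share group and depth, and carry no test.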

How the data were processed

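Insertion sites of PB and SB mice were sequenced by QiSeq, in which junctions between transposon and genome are amplified by splinkerette PCR and read as paired ends of 75 bp. The deposited read counts are raw values per insertion that the authors did not normalize, on mm10 (GRCm38) per the labels. The aligner, caller and read filters are not given in the sources used here, so their effect was not examined. A deposited normalized coverage (1 column) was not used. Each deposited position was assigned to the closest motif within 5 bp, TTAA for PB and TA for SB, and lines of a sample on 1 motif were merged into 1 insertion. The 3 member lines off the motif were dropped. The donor chromosome 14 and the sex chromosomes were left out. No line had fewer than 2 reads.

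The reads on kept insertions ran from 60545 to 5721832 per PB tumour, 71170 to 193314 per PB tail, 56871 to 162837 per SB tumour and 55502 to 369482 per SB tail. Insertions kept per sample ran from 757 to 10800. Intervals and limits cover counting error only, and PCR reads are not independent molecules. A count of 0 was taken to allow 3 insertions over the group.

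The gene of an insertion was that of the deposited table. Tumours and tails were compared with edgeR 4.0.16 (quasi-likelihood, R 4.3.3) on insertions per gene, with the sample's total as library size, a minimum of 10 insertions and Benjamini-Hochberg adjustment over all genes tested. DESeq2 1.42.0 was an alternative. For TransmicronNULL, gene bodies came from RefSeq on GRCm38.p6, and the expected number was the chromosome's insertions times the gene's share of its motif sites. A gene was called at a Bonferroni-adjusted one-sided Wald p below 0.05 if at least 3 samples and 5% of samples were hit. Exons are those of GENCODE vM21. Orientation was tested for members hit in at least 6 PB tumours, and tumour site by Fisher's exact test. The scripts were tested on simulated data. For PB tumours against tails, edgeR found 68 of 200 genes raised 4-fold, with 1 false call, so most such changes were missed. TransmicronNULL found 170 of 200 genes raised 6-fold in PB tumours, with 0 false calls. In SB tumours it found 154 of 200, with 3 false calls. Its simulated counts were drawn from the expected numbers. They could therefore not probe insertion preferences or several insertions in a tumour. Python 3.11.15, numpy 2.4.6, pandas 2.3.3, scipy 1.17.1 and matplotlib 3.10.9 were used.

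The members and the list of 55 further genes were chosen with earlier results of these data known. Named were all members, those further genes that were called in tumours or changed, of which 1 is not reported here, and the 3 genes ordered most like Gna13. The Ccr7 pair, the positions shared between samples and the ranks by reads were described after their values had been seen.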

Additional observations from a re-analysis of the deposited data

Results flagged for a closer look

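For 3 members, PB tumours held at least 3 insertions within 10 kb that the table does not give to the member, where PB tails had 0. There were 10 near S1pr2, in 8 tumours and all intergenic, 6 near Cxcr4, in 6 tumours and all intergenic, and 3 near S1pr1, in 3 tumours, of which 1 is named Gm9889. Arhgef1 had 2 such insertions in PB tumours and 0 in PB tails. The numbers were found by setting PB tumours beside PB tails, which had fewer insertions (48122 against 156888), and the numbers themselves were not tested between them. Against expected insertions with 10 kb on each side, S1pr2 was called, as given above, while Cxcr4 with 6 insertions against 1.23 expected and S1pr1 with 6 against 1.59 were not (Bonferroni-adjusted p = 1 for both).

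Within sites of 4 to 10 PB tumours, a single tumour stood far from the others in 3 of 11 groups examined. In normally distributed values chance does so in about 1 of 20 groups, a rate that does not hold for counts as small as these, where a lone insertion always stands apart. PB tumour 3 held 4 insertions in Gna13 among 6 spleens whose other values were 0 or 1, and it was also the sample with the most reads. For Rhoa, PB tumour 25 was the only spleen with an insertion and PB tumour 20 the only one of 9 mesenteric masses, with 1 insertion each.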

How the results depend on the processing

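Gna13 was past the threshold between PB tumours and tails in each of the 9 alternatives, the largest adjusted p being 0.0189 (presence per sample, Fisher's exact test), and was called against expected insertions in 6 of 6. Of the values given for single genes, 127 kept their direction and side of the threshold under an alternative, 34 lost the call, 5 gained it and 0 reversed. S1pr1 was called with Benjamini-Hochberg correction only. The number of genes past the threshold moved more. Between PB tumours and tails it was 147, and fell to 46 with DESeq2, to 71 with no minimum of insertions and to 7 with presence per sample. Between SB tumours and tails it was 9, then 2 with DESeq2, 1 with presence per sample and 27 with the donor chromosome kept. Against expected insertions, the 1121 calls in PB tumours became 646 with an exact Poisson test, 480 with at least 10 reads, 497 with at most 1 insertion per sample and gene and 2852 with Benjamini-Hochberg correction. The 282 of PB tails became 83 (exact Poisson), 95 (1 per sample) and 876 (Benjamini-Hochberg), the 95 of SB tumours 33, 16 and 307, and the 43 of SB tails 13, 9 and 167. The cause was not tested. Leaving out shared low-read positions and leaving out the deepest spleen were added after seeing the data. For the orientation and site tests and the interaction, 0 results passed in any alternative. No paired analysis was possible because there was 1 sample per mouse name. Replicate numbers were given in accession order and pair no samples.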
